A study of Homo sapiens with 19 samples.

Results

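The regions described here are the superenhancers that the authors listed for the human triple-negative breast cancer line MDA-MB-436, in a parental culture and in cells grown back from a xenograft. They were taken as all regions of 3 lists: 116 listed for the xenograft culture alone (No3a-specific), 97 for the parental culture alone (Luc2-specific) and 324 for both (common). Together these are 537 of the 1958 superenhancer regions in the series. The parental culture, MDA-MB-436_Luc2, is labelled as the parental cell line and carries luciferase. The xenograft culture, MDA-MB-436_Luc2_No3a, carries the same transgene and is labelled as a polyclonal ex vivo culture. Both were grown in RPMI medium with serum, and each has 2 replicates of H3K27ac ChIP-seq. The labels give 1 input library for this line, that of the parental culture, and 1 xenograft culture, so differences between this culture and its parent cannot be told apart from differences that any other outgrowth would show. The rest of the series profiles H3K27ac and the transcription factor OCT-2 in MDA-MB-231 cells, another triple-negative line, and in its metastatic clone MDA-231-D.

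H3K27ac is an acetyl mark that sits on the histones of active promoters and enhancers. A superenhancer is a stretch of closely spaced acetylated sites that are joined into 1 region and rank at the top of all such stretches by signal. Superenhancers often lie at genes that define a cell's identity and, in tumours, at oncogenes. They are thus read as a map of the regulatory state of a cell, and a change of that map in cells that grew in a host is of interest for how tumour cells adapt.

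The lists hold the position of each region and the number of calls merged into it, without reads, scores or values per replicate. The depth behind a region is therefore unknown. Each class is a single list made from both replicates, and regions of 1 list are not replicates of a culture, so no test was made and every comparison below is a description. An interval given beside a percentage is the 95% interval by the exact Clopper-Pearson method. One given beside a median is the 95% interval from order statistics. These cover counting error over regions alone, and not every value carries one. The names of these lists give no genome build. Of the 1074 region starts and ends, 97 lay within 500 bp of a start or end in the 566 hg19 regions of 231Pa (parental MDA-MB-231) and MDA-231-D, and 6 lay that close in the 855 hg38 regions of the series. The positions are therefore read as hg19. No gene positions in hg19 were used here, so regions are identified by position and no genes are named.

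Most superenhancers were listed for both cultures. The 324 common regions made up 60.3% of all 537 (interval 56.1 to 64.5%). Of the 440 regions listed for the xenograft culture alone or in common, 26.4% (interval 22.3 to 30.7%) were specific to it. The matching share for the parental culture was 23.0% of 421 (interval 19.1 to 27.4%). In the hg19 lists of MDA-MB-231, by comparison, 55.1% of the regions of MDA-231-D and 46.3% of those of 231Pa were specific, and the common part was 32.3% of 566. The MDA-MB-436 pair thus shared more of its list than the MDA-MB-231 pair did. The MDA-MB-231 pair compares a selected clone, and no source used here says whether the lists of both lines were called in the same way. No region of 1 MDA-MB-436 list overlapped a region of another. Where overlapping calls are merged into common regions, this follows from how the lists were made.

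By length the order of the specific classes was the other way round. The No3a-specific regions were more numerous but covered 6.74 Mb, and the Luc2-specific ones covered 9.21 Mb. The common regions covered 35.0 Mb.

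Superenhancers listed for the xenograft culture alone were narrow. Their median width was 48.9 kb (interval 40.9 to 56.7 kb), with quartiles of 26.1 and 78.7 kb and a range from 5.12 to 180 kb. Luc2-specific regions had a median of 88.6 kb (interval 73.5 to 104 kb), quartiles of 62.1 and 122 kb and a range from 17.4 to 317 kb. The No3a-specific median was 0.55 times the Luc2-specific one (difference -39.7 kb), and the intervals of the medians did not overlap. Common regions had a median of 94.4 kb (interval 85.7 to 102 kb). Each common region is a merge of calls, 2 calls in 314 of them and 3 in 10, so its width is that of the union of both cultures and is not a measure of either. The MDA-MB-231 pair had the same order, with 76.8 kb for MDA-231-D-specific and 101.6 kb for 231Pa-specific regions, a ratio of 0.76.

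The difference lay along the whole distribution. Under 50 kb were 62 of the 116 No3a-specific regions (53.4%) and 16 of the 97 Luc2-specific ones (16.5%). Over all 537 regions, 31 (5.77%) were narrower than 20 kb, and 20 of these were No3a-specific, 10 common and 1 Luc2-specific. At 100 kb or more were 21 No3a-specific regions (18.1%) and 42 Luc2-specific ones (43.3%). With only regions of at least 50 kb, the order of the numbers turned, with 54 No3a-specific and 81 Luc2-specific regions. Narrow regions were not gathered in 1 place: the 20 No3a-specific regions under 20 kb lay on 14 chromosome arms. In 24 of the 28 arms that held both classes, the No3a-specific median was the lower one, and it was the higher one on 8q, 9q, 4p and 17p. Many of these medians rest on few regions. Several arms held a single region of a class, and 12p and 17p held 1 of each. More than 5 Mb from chromosome ends the medians were 47.1 kb (n = 88) and 87.9 kb (n = 88). Within 250 kb of a common region the medians were nearer to each other, at 66.0 kb (n = 30) and 80.9 kb (n = 20), and farther away they were 47.8 kb (n = 86) and 89.97 kb (n = 77).

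**Figure D1:**
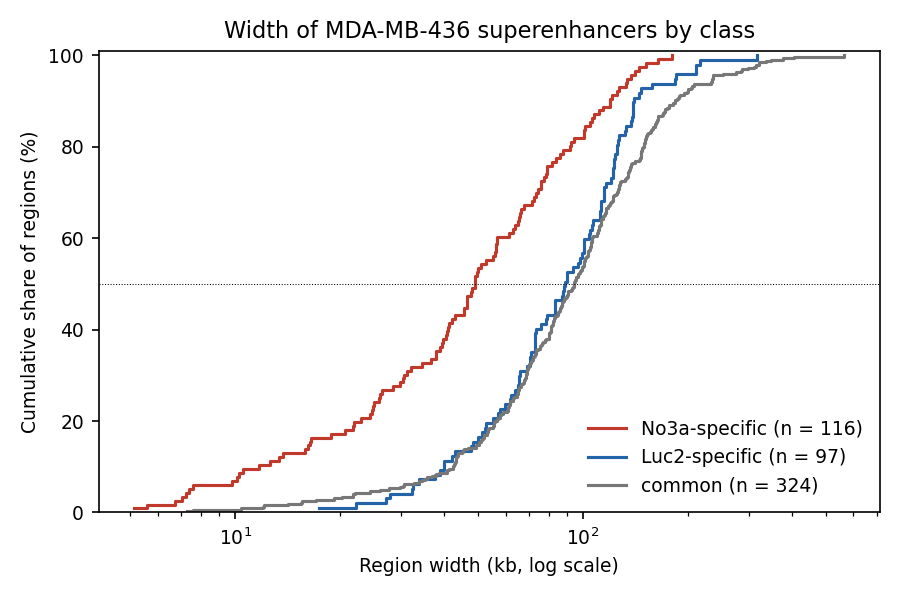
Cumulative share of regions (vertical axis, percent) by region width (horizontal axis, kb, log scale) for No3a-specific (116), Luc2-specific (97) and common (324) superenhancers; the dotted line marks the median. The No3a-specific curve lies to the left, with a median of 48.9 kb, and the Luc2-specific (88.6 kb) and common (94.4 kb) curves run close together.

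The widest No3a-specific region lay on 7q (chromosome 7, 140217796 to 140398183, 180 kb), 844 kb from the nearest common region. The next was near the end of 9q (chromosome 9, 140008440 to 140173262, 165 kb). Chromosome 17 held 3 of the 10 widest, 1 on 17p (1269806 to 1421399, 152 kb) and 2 on 17q (73760346 to 73901872, 142 kb, and 78732151 to 78869375, 137 kb). Others lay on 18q (chromosome 18, 55843904 to 55989362, 145 kb), 8q (chromosome 8, 67340304 to 67473983, 134 kb) and 12q (chromosome 12, 122879376 to 123012708, 133 kb). The list of 10 closes with regions on 20q (chromosome 20, 36721242 to 36848391, 127 kb) and 6p (chromosome 6, 27094384 to 27219516, 125 kb). The narrowest No3a-specific regions, on 1q (chromosome 1, 150335145 to 150340268) and 22q (chromosome 22, 29661717 to 29667308), spanned 5.12 and 5.59 kb.

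The widest Luc2-specific region lay on 19p (chromosome 19, 18384571 to 18701384) and spanned 317 kb, more than any No3a-specific one. Another region of 212 kb lay on the same arm (17319915 to 17531869). Regions of like width lay on 2q (chromosome 2, 151322784 to 151539899, 217 kb) and 8q (chromosome 8, 118823001 to 119034367, 211 kb). The next were on 17q (chromosome 17, 55900079 to 56085938, 186 kb), 3p (chromosome 3, 9884618 to 10069120, 185 kb) and 2p (chromosome 2, 9686732 to 9844562, 158 kb). The last of the 10 lay on 2p (75727954 to 75874918, 147 kb), 1p (chromosome 1, 42276956 to 42422207, 145 kb) and 5q (chromosome 5, 175787756 to 175927861, 140 kb). Of the 20 widest specific regions of either culture, 14 were Luc2-specific, and of the 20 narrowest 19 were No3a-specific. The widest common regions lay on 20q (chromosome 20, 48635941 to 49200560, 565 kb), 8q (chromosome 8, 128805779 to 129209768, 404 kb) and 5q (chromosome 5, 172124172 to 172500139, 376 kb), followed by 11q (chromosome 11, 62305978 to 62653759, 348 kb) and 1q (chromosome 1, 153419593 to 153756798, 337 kb). The regions on 20q, 8q and 11q were each merged from 3 calls. Of the 10 widest common regions, 7 also met a superenhancer of MDA-MB-231. The share was 52.5% among all common regions and 57.0% among those of 100 kb or more.

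Specific regions were spread over 39 chromosome arms, of which 28 held both classes, 5 No3a-specific regions without Luc2-specific ones and 6 the reverse. Over all arms, 54.5% of the 213 specific regions were No3a-specific, the background for each arm. On 7q, 8 of 10 specific regions were No3a-specific (80%, interval 44.4 to 97.5%), while on 7p all 4 were Luc2-specific. On 17q and on 9q, 7 of 9 were No3a-specific (77.8%, interval 39.99 to 97.2%), and on 1p 9 of 12 (75%). On 8q, 2 of 10 were No3a-specific (20%, interval 2.52 to 55.6%), on 19p 1 of 6, and on 5q and 15q 2 of 7 each. The large arms 2p and 2q had 7 No3a-specific and 5 Luc2-specific regions each, and 1q had 5 and 8. On 6p the numbers were 5 and 4, on 10q 4 and 5, on 12q 4 and 3, on 6q 3 and 3, on 14q 4 and 1, on 19q 3 and 2, on 3q 2 and 3, and on 4q 2 and 4.

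These are small numbers. The interval of every one of the 19 arms with 5 or more specific regions included 54.5%, so no single arm stood outside counting error. On the arms with the fewest specific regions it would do so even if all were No3a-specific, so it decides little there. Among regions of at least 50 kb, 40% of all specific ones (54 of 135) and 2 of 5 on 1p were No3a-specific. Among the smaller arms and chromosomes, chromosome 18 had 5 No3a-specific and 0 Luc2-specific regions beside 2 common ones, and 22q had 4, 0 and 4. Chromosome 16 had 0 No3a-specific and 3 Luc2-specific regions, and 3p had 0 and 4. On 4q, 6 of 7 regions were specific to a culture, and on 5p and 20p all 9 regions were common. Over all arms 39.7% of regions were specific. The lists carry no input signal, so a change of DNA copy number on an arm and a change of acetylation cannot be told apart.

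**Figure D2:**
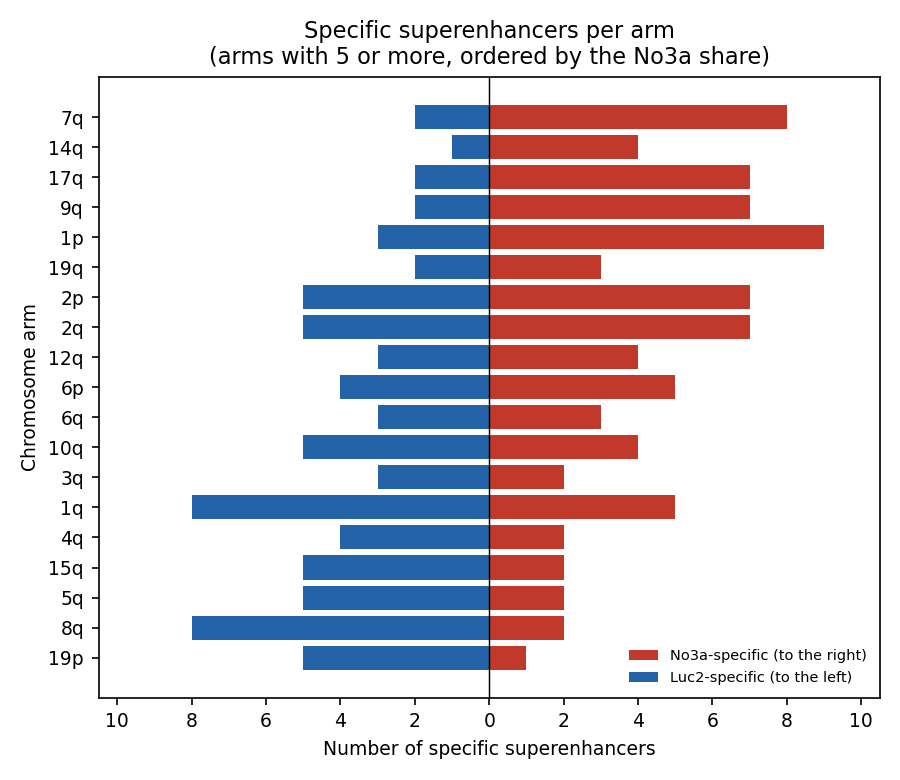
Number of No3a-specific (bars to the right) and Luc2-specific (bars to the left) superenhancers on each of the 19 chromosome arms with 5 or more specific regions, ordered by the share that is No3a-specific. The arm 7q leads with 8 against 2, and 8q (2 against 8) and 19p (1 against 5) are at the other end.

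A larger share of No3a-specific than of Luc2-specific regions lay near chromosome ends. This measure was chosen after the positions had been seen. Within 2 Mb of an end lay 15 of 116 No3a-specific regions (12.9%, interval 7.42 to 20.4%), 2 of 97 Luc2-specific ones (2.06%, interval 0.251 to 7.25%) and 21 of 324 common ones (6.48%, interval 4.06 to 9.74%). Over all 537 regions the share was 7.08%. Within 5 Mb the shares were 24.1%, 9.28% and 13.6%, and within 1 Mb, with 3, 1 and 7 regions, 2.59%, 1.03% and 2.16%. The intervals of the No3a-specific and Luc2-specific shares did not overlap at 2 Mb by a narrow margin, with facing bounds of 7.42 and 7.25%, and overlapped at 5 Mb (16.7 to 33.0% and 4.33 to 16.9%) and at 1 Mb (0.537 to 7.37% and 0.0261 to 5.61%). With only regions of at least 50 kb the shares within 2 Mb were 12.96%, 2.47% and 6.88%, in the same order. In the MDA-MB-231 lists 3.56% of MDA-231-D-specific and 3.16% of 231Pa-specific regions lay within 2 Mb of an end.

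The 15 No3a-specific regions within 2 Mb lay at 12 chromosome ends, and the intervals above count neighbours at 1 end as separate regions. That on 13q (chromosome 13, 115044177 to 115090698, 46.5 kb) was 0.0792 Mb from the last base of the chromosome by hg19 lengths. Chromosome 10q held 3 (133729672 to 133837471, 134120353 to 134146513 and 134477236 to 134500296), with no other MDA-MB-436 region among them and 12282 to 13030 kb from the nearest common one. On 7q there were 2 (chromosome 7, 157074874 to 157146071 and 158593539 to 158623336), and chromosome 17 had 1 at each end, of which that on 17q spanned 79789334 to 79895752. The only Luc2-specific regions within 2 Mb of an end lay on 19q (chromosome 19, 58950834 to 59088028, 137 kb) and Xq (chromosome X, 153267079 to 153364062, 97.0 kb). Of the 21 common regions, 6 lay at the end of 8q.

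**Figure D3:**
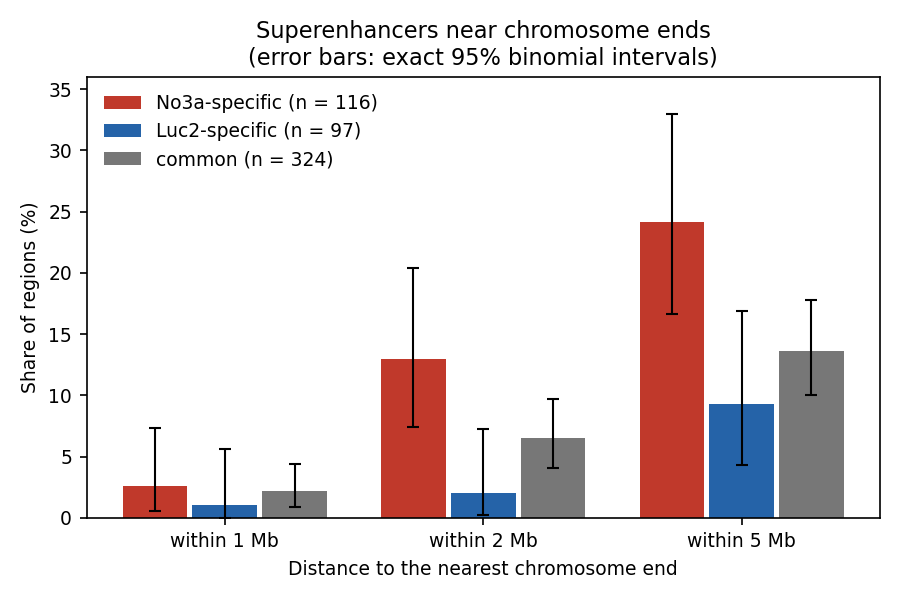
Share of regions (vertical axis, percent) within 1, 2 and 5 Mb of the nearest chromosome end for the 3 classes; error bars are exact 95% binomial intervals. At 2 Mb the No3a-specific share was 12.9%, the common share 6.48% and the Luc2-specific share 2.06%.

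Specific regions lay about as far from common regions as common regions lay from each other. The median distance, edge to edge, from a No3a-specific region to the nearest common region was 940 kb (interval 640 to 1588 kb), and from a Luc2-specific one 1200.0 kb (interval 849 to 2023 kb). Common regions lay a median of 953 kb (interval 582 to 1192 kb) from the next common region. Where common regions are each other's nearest, 1 gap is counted for both. The distances and shares of this class are thus not independent, and the interval may be too narrow. The medians of the specific classes differed by less than their intervals. Within 100 kb of a common region lay 15 No3a-specific regions (12.9%, interval 7.42 to 20.4%) and 9 Luc2-specific ones (9.28%, interval 4.33 to 16.9%), and within 1 Mb 51.7% and 45.4%. Of common regions, 17.6% had another common region within 100 kb and 51.2% within 1 Mb. The closest approach was 24.4 kb for the first class and 26.6 kb for the second.

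The No3a-specific regions nearest to a common one lay on 14q (chromosome 14, 24550469 to 24632183), on 17q (the region of 142 kb above) and on 20q (chromosome 20, 33983284 to 34061939), with 24.4, 26.1 and 26.3 kb between. Then came 2 regions on 1p (chromosome 1, 59279881 to 59316568 and 43987029 to 44002861), at 27.3 and 28.4 kb. Among Luc2-specific regions the nearest were on 1q (chromosome 1, 151912995 to 151974537, 26.6 kb away), Xq (the region near the end of the arm, 27.3 kb) and 6q (chromosome 6, 86110770 to 86128166, 29.7 kb). At the other extreme, 2 regions on 4q were the farthest from any common region, a No3a-specific one (chromosome 4, 187741484 to 187767469) at 131689 kb and a Luc2-specific one (189014096 to 189104060) at 132962 kb. The 2 No3a-specific regions of 18q were 52168 and 71090 kb from a common region, since 18q held none.

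**Figure D4:**
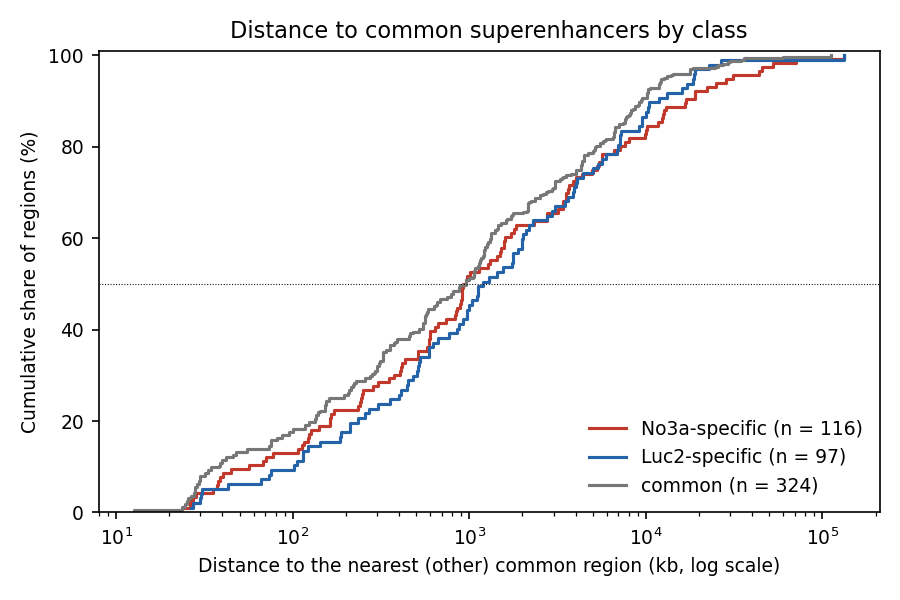
Cumulative share of regions (vertical axis, percent) by edge-to-edge distance to the nearest common superenhancer, for common regions to the nearest other one (horizontal axis, kb, log scale). The 3 curves run close together, with medians of 940 kb (No3a-specific), 1200.0 kb (Luc2-specific) and 953 kb (common).

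No No3a-specific region lay within 100 kb of a Luc2-specific one, and 0 of 116 lay that close to another No3a-specific one; of Luc2-specific regions, 8 of 97 (8.25%) lay within 100 kb of another of their class. Within 1 Mb of a Luc2-specific region lay 9 of 116 No3a-specific ones (7.76%). Within 1 Mb of another region of their own class lay 30.2% of No3a-specific and 22.7% of Luc2-specific regions. The closest pair was on 6p, 211 kb apart (No3a-specific at chromosome 6, 31759720 to 31832217, and Luc2-specific at 32043234 to 32165160). Pairs on 2q (chromosome 2, 238367447 to 238422616 and 238767266 to 238806051) and 2p (10259881 to 10270423 and 9686732 to 9844562) were 345 and 415 kb apart. The next were on 4q (No3a-specific at chromosome 4, 56786742 to 56817351, Luc2-specific at 57252000 to 57334949), 435 kb apart, and on 7q (chromosome 7, 130790048 to 130797424 and 131268235 to 131339076), 471 kb apart. No common region lay between the members of these 5 pairs.

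A run is a series of regions of 1 class along a chromosome with no region of another class among them. In runs of 2 or more lay 57 of 116 No3a-specific regions (49.1%) and 40 of 97 Luc2-specific ones (41.2%). Pairs were the more numerous among No3a-specific regions, with 24 against 8. Of runs of 3 or more, Luc2-specific regions had 7 with 24 regions in all, and No3a-specific regions had 3 with 9. The tightest No3a-specific run was that on 10q, where 3 regions lay in 0.77 Mb. The other 2, on chromosome 18 and Xq, spanned 71.1 and 32.9 Mb. On 8q the parent had 2 runs: 4 regions in 5.90 Mb (chromosome 8, 118823001 to 124718606), of which the first and widest was 211 kb, and 3 regions in 3.41 Mb (131206046 to 134619332). The widest common region of 8q lay between these runs. The remaining Luc2-specific runs were 3 regions on 6p in 8.51 Mb, 3 on 5q in 12.2 Mb, 3 on 4q in 17.8 Mb, 4 on 1q in 19.4 Mb and 4 on 7p in 25.6 Mb. Where a gap of more than 5 Mb also ended a run, 1 No3a-specific run and 3 Luc2-specific runs were left.

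The share of regions that MDA-MB-231 cells also had was highest among common regions and lower in both specific classes. Of all 537 regions, 41.7% overlapped a superenhancer of 231Pa or MDA-231-D by 1 bp or more. Among common regions this share was 52.5% (170 of 324, interval 46.9 to 58.0%), among Luc2-specific ones 29.9% (29 of 97, interval 21.02 to 40.04%) and among No3a-specific ones 21.6% (25 of 116, interval 14.5 to 30.1%). The intervals of both specific classes lay below that of the common one and overlapped each other. By number per length the order of the specific classes turned, with 3.71 overlapped MDA-MB-231 regions per Mb of No3a-specific, 2.93 per Mb of Luc2-specific and 4.83 per Mb of common regions. An overlap of 1 bp counts a whole MDA-MB-231 region however narrow the MDA-MB-436 region is, so the number per Mb also depends on width. By covered length the order did not turn, with 21.2%, 25.2% and 47.7% of the bases of these classes in an MDA-MB-231 superenhancer. The part of width in these shares was not tested. The shares in 3 ranges of width follow. Under 50 kb, where the median widths were 27.4, 38.1 and 35.5 kb, the shares were 20.97% for No3a-specific, 31.2% (5 of 16, interval 11.02 to 58.7%) for Luc2-specific and 41.7% for common regions. From 50 to 100 kb they were 24.2%, 30.8% and 51.2%. From 100 kb on, where the median widths were 121.3, 124.8 and 144.8 kb, they were 19.05%, 28.6% and 57.0%. Across these ranges the share rose steadily with width in the common class alone. The intervals of the No3a-specific and Luc2-specific shares overlapped in every range.

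**Figure D5:**
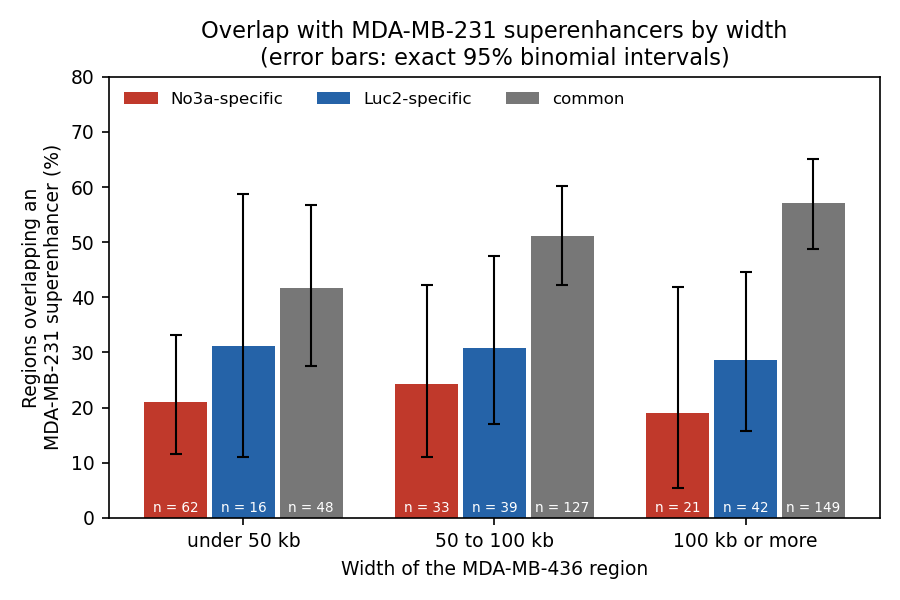
Share of MDA-MB-436 regions that overlap a superenhancer of 231Pa or MDA-231-D (vertical axis, percent) in 3 ranges of region width for the 3 classes; error bars are exact 95% binomial intervals and n is the number of regions. Common regions are highest in every range, from 41.7% to 57.0%, and No3a-specific ones lowest, from 19.05% to 24.2%.

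The overlap was unequal between the metastatic clone and its parent, most of all in the common class. Over all MDA-MB-436 regions, 16.9% met a region specific to the metastatic clone MDA-231-D and 3.91% one specific to 231Pa. For common regions the shares were 22.5% (73 of 324) and 3.70% (12 of 324). From the other side, 32.9% of the 225 MDA-231-D-specific regions and 7.59% of the 158 231Pa-specific ones met a common MDA-MB-436 superenhancer. Of No3a-specific regions, 10 (8.62%) met an MDA-231-D-specific region and 3 (2.59%) a 231Pa-specific one, which are 4.44% and 1.90% of those lists. Of Luc2-specific regions the numbers were 8 (8.25%) and 6 (6.19%), or 3.56% and 3.80% of the lists. The shares with an MDA-231-D-specific region had nearly the same interval in both specific classes, at 8.62% (interval 4.21 to 15.3%) and 8.25% (interval 3.63 to 15.6%). A further 12 No3a-specific and 15 Luc2-specific regions met one common to 231Pa and MDA-231-D.

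The widest No3a-specific regions that were also MDA-231-D-specific lay on 14q (chromosome 14, 102687126 to 102787755, 100.6 kb), 15q (chromosome 15, 42186594 to 42265569, 79.0 kb) and 22q (chromosome 22, 38571849 to 38637757, 65.9 kb). Next were regions on 2q (chromosome 2, 100437026 to 100500170) and 19q (chromosome 19, 42579017 to 42627935). The 3 that met a 231Pa-specific region lay on 2q (238367447 to 238422616 and 161061213 to 161100725) and 1q (chromosome 1, 236066026 to 236082229). Luc2-specific regions that were also MDA-231-D-specific included 2 neighbours on 4q (chromosome 4, 74566763 to 74608702 and 74960134 to 75025190). Others lay on 17q (chromosome 17, 75229356 to 75368782), 1q (180067335 to 180150664) and 15q (90885687 to 90964306).

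OCT-2 peaks of MDA-231-D, which come from another cell line and describe where the factor bound there, were found in 17.3% of MDA-MB-436 superenhancers. OCT-2, encoded by POU2F2, is an octamer-binding factor best known from B lymphocytes. A peak lay in 10 of 116 No3a-specific regions (8.62%, interval 4.21 to 15.3%), in 16 of 97 Luc2-specific ones (16.5%, interval 9.73 to 25.4%) and in 67 of 324 common ones (20.7%, interval 16.4 to 25.5%). Per length the classes were closer, with 1.63, 1.84 and 2.28 peaks per Mb. Under 50 kb the shares were 8.06% (5 of 62), 6.25% (1 of 16) and 10.4% (5 of 48). From 50 to 100 kb they were 3.03% (1 of 33), 10.3% (4 of 39) and 18.9% (24 of 127), and from 100 kb on 19.05%, 26.2% and 25.5%. The share rose with width in the Luc2-specific and common classes, and the part of width in the lower share of No3a-specific regions was not tested. The only No3a-specific region with 2 peaks lay on 1p (chromosome 1, 59279881 to 59316568), 27.3 kb from a common region, and met a superenhancer common to 231Pa and MDA-231-D. The only Luc2-specific region with 2 was the widest of 8q (118823001 to 119034367). Single peaks lay in the wide No3a-specific regions of 17q (73760346 to 73901872), 12q and 6p, and in one on 7q (chromosome 7, 100025452 to 100146768). OCT-2 was not precipitated in MDA-MB-436 cells in the samples used here.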

How the data were processed

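Per the labels' protocols, chromatin of MDA-MB-436_Luc2 and MDA-MB-436_Luc2_No3a was precipitated with 5 µg of an antibody against H3K27ac, with 2 replicates each. Per the submitters' processing notes, Bowtie2, Bowtie, HOMER and bedtools were used, without roles; no source used here states thresholds or the rule for a specific region. The authors deposited interval positions and, in each region's name, the number of merged calls. The lists were used without conversion between builds. Positions are given 1-based, with 1 added to each listed start.

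Overlap was 1 bp or more. Distances are edge to edge. Arm boundaries and chromosome lengths of hg19 were entered by hand as background knowledge: no listed hg19 interval crossed a boundary (the nearest was 1.10 Mb away) or passed a chromosome end. Named regions are the 10 widest of each specific class, the 5 widest common ones, extremes of distance, closest pairs, runs of 3 or more, and leading overlaps with MDA-MB-231 lists, of which some are given by count alone. The members and comparisons were chosen with earlier results of these data known. No test was made. The functions were tested on simulated regions. Gene lists and sequences were not used, since no hg19 annotation or genome was at hand. Alternatives were stitching, a minimum width of 50 kb, omission of chromosome X, other distances and a larger overlap. Software was Python 3.11.15 with scipy 1.17.1, numpy 2.4.6 and matplotlib 3.10.9.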

Additional observations from a re-analysis of the deposited data

How the results depend on the processing

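No paired analysis was possible because each list pools both replicates, and for the same reason no replicate could be left out. Stitching of regions of 1 list that lie close together changed no region, since none lay within the stitching distance. With only regions of at least 50 kb, a setting that by construction removes narrow regions, 54 No3a-specific regions were left and 16.4% of the regions of the xenograft culture were specific; the medians were 82.7 kb (No3a-specific) and 105 kb (common), against 100.6 kb for Luc2-specific regions. The No3a-specific share of all specific regions, 54.5% by number, was 42.2% by covered length and 40% among regions of at least 50 kb. Within 250 kb of a common region lay 25.9% of No3a-specific and 20.6% of Luc2-specific regions. With runs ended by gaps over 5 Mb, 1 and 3 were left. Within 1 Mb of a chromosome end lay 2.59% of No3a-specific and 2.16% of common regions, and within 5 Mb 24.1%, 13.6% and, for Luc2-specific ones, 9.28%. The other 38 of 53 values for whole classes stayed within their intervals or within 1.5 times of the count. These 38 include the values after stitching, which could not differ because stitching changed no region. Of 38 values for single arms, 32 did so. The unknown depth and calling threshold limit every count: a region just under the threshold in 1 culture is listed as specific to the other.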
